A study of Bos taurus with 6 samples.

Results

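Cell cycle and mitosis genes were examined in the longissimus dorsi, the long muscle of the back, of Japanese Black and Holstein steers. The set was chosen by name: 46 symbols, which stand for 45 genes because CDC2 is an older name of CDK1. Of these, 38 genes were named by a single symbol on the Affymetrix array, out of 9155 genes named in that way, and 51 probe sets measured them. The symbols MKI67, TOP2A, CDK6, MCM2, CDC25B, SMC2 and CDKN1B were not among the platform's single-symbol names and are not analysed here. Each gene was read at its brightest probe set, the one with the highest mean log2(signal + 16) over all arrays.

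The series held 6 arrays, 1 per animal, from 3 Japanese Black and 3 Holstein steers, a steer being a castrated male. Japanese Black is a beef breed with much fat inside the muscle, and Holstein is mainly a dairy breed. All 6 steers had received energy-rich feed, so both breeds share that treatment, and the labels give no age. The numbers 1 to 3 within a breed only name the animals.

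Cells enter division when D-type cyclins and their kinases, CDK4 and CDK6, and then cyclin E with CDK2, inactivate the retinoblastoma protein and release the E2F factors that drive genes of DNA replication. Cyclin B with CDK1 then triggers mitosis, the spindle checkpoint holds sister chromatids together until all are attached, and ubiquitination by the anaphase-promoting complex releases separase and ends mitosis. Muscle fibres are post-mitotic, so in a resting muscle these genes are known mainly from the few satellite cells, blood and connective tissue cells that still divide, while inhibitors such as p21 are also made by the fibres. In whole tissue, fewer cells of a type and less RNA per cell cannot be told apart.

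The tissue label was checked against 8 annotated fibre markers, among them ACTA1, CKM, MB and MYH7. Their summed signal lay between 102752 and 109851 in the 6 animals. Array medians ran from 48.5 to 54.7 intensity units and upper quartiles from 172 to 205. Japanese Black 3 had the highest of both. The ratio of the 3′ to the 5′ actin probe set, a measure of RNA integrity, ran from 1.11 to 1.14 in Japanese Black and from 1.003 to 1.07 in Holstein, with no overlap. The same ratio for GAPD overlapped, at 0.858 to 0.928 and 0.796 to 0.884. The 18 hybridisation controls had a mean log2 of 11.2 in Holstein 3; elsewhere it was 10.6 to 10.8. The part of these array measures in the differences given here was not tested.

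Of the 38 genes, 31 lay above the 25% quantile of probe set means, which was 5.02 on the log2(signal + 16) scale, and 7 lay below it. Over all 9155 genes, read in the same way at the brightest probe set, 8050 or 87.9% lay above the line, beside 81.6% here. The 7 below were CCND1, RRM2, CCNA2, CCNB1, BUB1, BUB1B and CDC20. CCNB2 was the gene just above the line, with a mean of 5.07, and CDC20 the gene just below it, with a mean of 4.92. Probe sets differ in how well they bind, so a low signal does not give the amount of a transcript relative to another gene. All 7 of the licensing and fork genes lay above the line, as did all 4 of the brakes and both genes of chromosome structure. Of the G1 cyclins and kinases 6 of 7 did, of nucleotide supply 3 of 4, of the mitotic cyclins and CDK1 2 of 4, of the spindle kinases and checkpoint 5 of 7 and of mitotic exit 2 of 3.

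**Figure D1:**
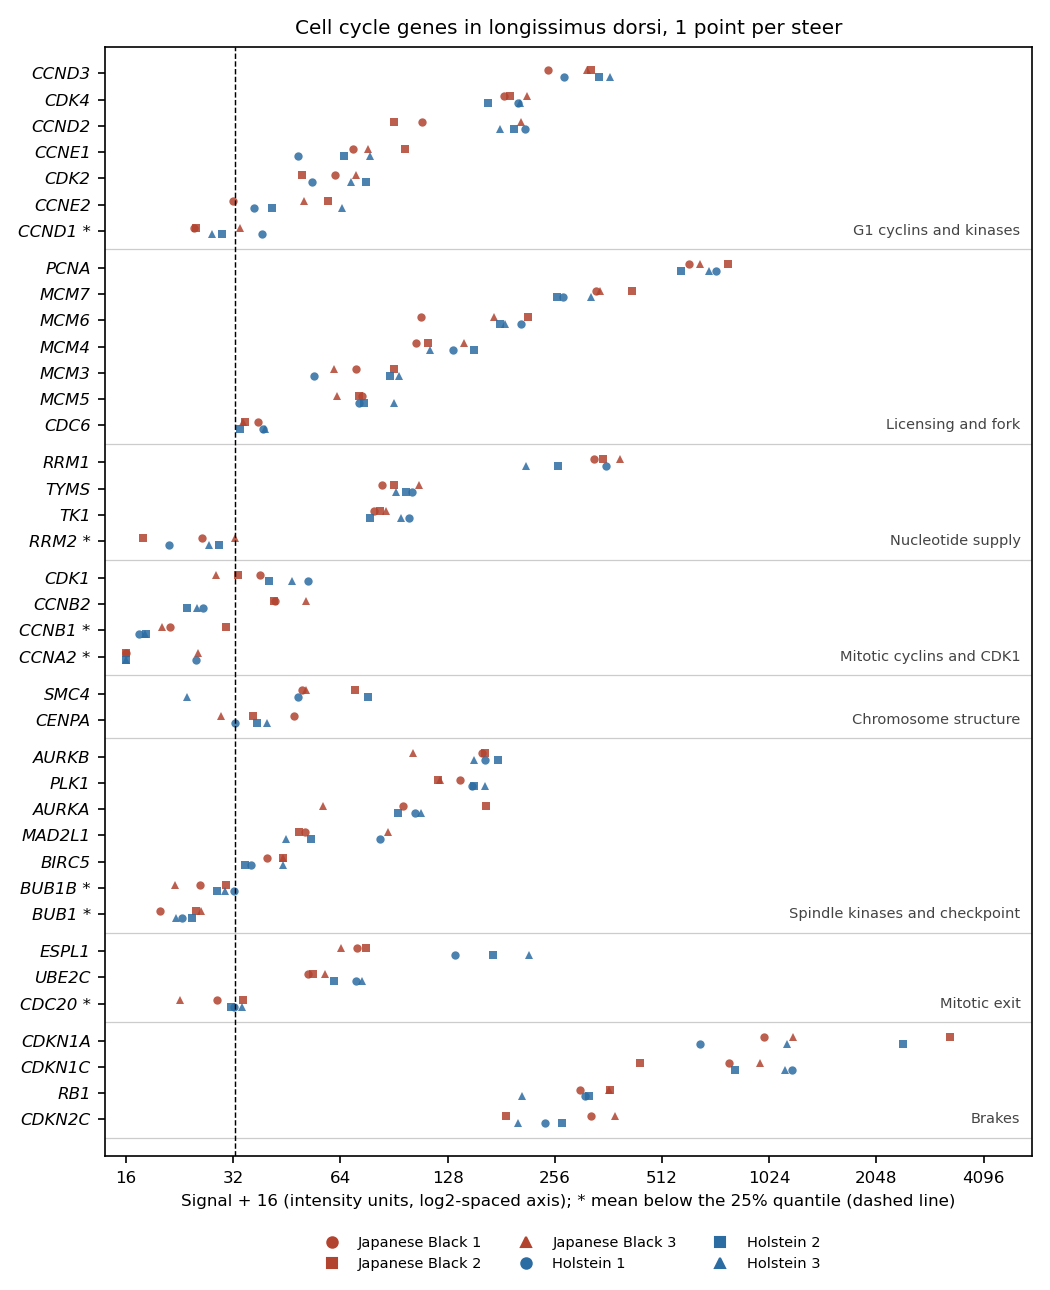
Signal of each of the 38 annotated genes at its brightest probe set, with 16 added, on a log2-spaced axis; each point is 1 steer, red for Japanese Black and blue for Holstein. Asterisks mark the 7 genes below the 25% quantile. CDKN1A, the first row of the brakes in the bottom block, shows 1 animal of each breed far to the right of the others.

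The comparison of the breeds asked whether any step of the cycle differed under this feeding. No gene of the set passed an adjusted p of 0.05 in limma's moderated test, adjusted by the Benjamini-Hochberg method across 18012 probe sets: 0 of 31 tested genes, where 0.0167% of all probe sets passed. The smallest adjusted p was 0.115, for ESPL1. At an unadjusted p under 0.05 there were 3 genes, ESPL1, CCNB2 and CDK1, or 9.68% of those tested, against 12.6% of all probe sets. Of these, 1 was higher in Japanese Black, 3.23% of the genes tested beside 7.31% of all probe sets, and 2 were lower, 6.45% beside 5.28%. The 1 higher gene, CCNB2, was tested only through its high Japanese Black values, as described with its signals, so its count supports nothing; without it 2 of 30 genes remained, or 6.67%. The values of the breeds did not overlap for 6 of the 31 genes, or 19.4%, against 19.8% of all probe sets. Without CCNB2 it was 5 of 30 genes, or 16.7%. MCM7 and CCNB2 were the 2 with every Japanese Black animal above every Holstein animal, 6.45% of the genes beside 11% of all probe sets. ESPL1, CDK1, UBE2C and PLK1 were the 4 with the reverse, 12.9% beside 8.84%. The shares over both directions are near or below the background. Those toward lower values in Japanese Black are above it but rest on only 2 and 4 genes in all, and no test of the set was made.

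Japanese Black read higher for 16 of the 38 genes and lower for 22. The median log2 difference was -0.06, beside -0.01 over all 9155 genes, of which 4448 were higher and 4707 lower. Of all probe sets tested, 49% were lower. Leaving out each animal in turn gave medians from -0.10 to -0.03 and from 20 to 24 genes lower. Within each animal, the mean deviation of the 38 genes from their own means was -0.11 in Japanese Black 1 and between 0.01 and 0.04 in the other 5. The set as a whole therefore read lower in Japanese Black 1 than in the other animals, and not in the rest of its breed. Standard errors of single differences had a median of 0.20 and ran from 0.15 to 0.53, which with 3 steers a breed leaves room for differences of moderate size that were not detectable.

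**Figure D2:**
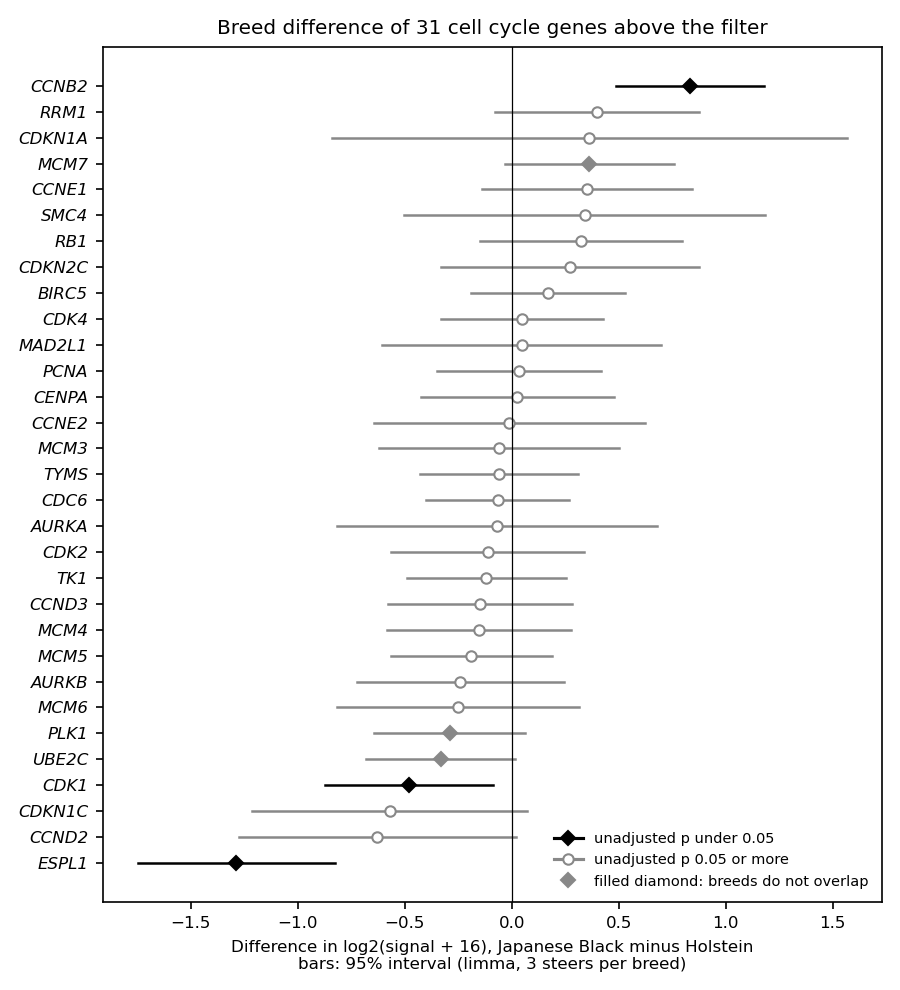
Difference in log2(signal + 16) between the breeds, Japanese Black minus Holstein, for the 31 genes above the 25% quantile, with limma's 95% intervals; black marks an unadjusted p under 0.05 and filled diamonds mark genes whose breeds do not overlap. ESPL1 at -1.29 and CCNB2 at 0.83 are the extremes, and most intervals span 0.

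Among the G1 cyclins and their kinases, 6 of 7 genes lay above the line, 2 were higher and 5 lower in Japanese Black, and the breeds overlapped for all 7. CCND3, the D-type cyclin with the brightest probe set of this group, is known in muscle for its rise when myoblasts leave the cycle. It read 229, 307 and 298 in Japanese Black and 255, 325 and 349 in Holstein, a log2 difference of -0.15 (SE 0.19). CCND2, another D-type cyclin, read 92.8 and 74.5 in Japanese Black 1 and 2 but 190 in Japanese Black 3, next to 164 to 195 in Holstein. Its log2 difference was -0.63 (SE 0.29, adjusted p 0.407 in limma), and only the first 2 Japanese Black animals stood apart. CCND1 had signals of 8.91 to 22.5 in all animals and lay below the line. CDK4, the partner of the D-type cyclins, differed by 0.05 (SE 0.17) and lay between 150 and 198 in all animals. The E-type cyclins CCNE1 and CCNE2, which start S phase, differed by 0.35 (SE 0.22) and -0.01 (SE 0.28). Their kinase CDK2 differed by -0.11 (SE 0.20).

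The licensing and fork genes load and run the replication machinery. Of 7 annotated genes 2 were higher and 5 lower in Japanese Black. PCNA, the sliding clamp of DNA polymerase, had the brightest probe set. It read 592, 769 and 638 in Japanese Black and 710, 563 and 676 in Holstein. The animals of both breeds were interleaved, and the log2 difference was 0.03 (SE 0.17). Its sign turned without Japanese Black 2 (-0.072), without Holstein 2 (-0.064) and after quantile normalization (-0.063).

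MCM7, a subunit of the hexameric helicase that unwinds DNA, read 317, 405 and 328 in Japanese Black and 253, 244 and 308 in Holstein. All 3 Japanese Black animals lay above the Holstein animals, by a narrow gap between 308 and 317. The log2 difference was 0.36 (SE 0.17, adjusted p 0.425 in limma) and ranged from 0.26 to 0.46 when single animals were left out. The other annotated helicase subunits had the opposite sign, all with overlapping breeds. Their log2 differences were -0.06 (SE 0.25) for MCM3, -0.15 (SE 0.19) for MCM4, -0.19 (SE 0.17) for MCM5 and -0.25 (SE 0.25) for MCM6. Further probe sets gave 0.07 for MCM3, below the line, and -0.03 for MCM6. MCM6 was lowest in Japanese Black 1, at 92.1, while the remaining 5 animals read 156 to 200. The helicase subunits, which work in equal numbers in 1 ring, thus did not share a direction. CDC6, which loads the helicase on origins, differed by -0.07 (SE 0.15) at signals of 17.5 to 23.3.

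Nucleotide supply was represented by both subunits of ribonucleotide reductase and by the thymidylate enzymes. RRM1, the large subunit, which is known to be present through the whole cycle, read 315, 334 and 373 in Japanese Black and 340, 245 and 196 in Holstein. Holstein 1 lay among the Japanese Black animals, and the difference was 0.40 (SE 0.21, adjusted p 0.457 in limma). RRM2, the small subunit made in S phase, had signals of 1.91 to 16.3 and lay below the line. TYMS, thymidylate synthase, and TK1, thymidine kinase of dividing cells, differed by -0.06 (SE 0.16) and -0.12 (SE 0.16), with ranges over all animals of 67.9 to 90.1 and 61.5 to 83.4.

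The mitotic cyclins and CDK1 held 2 of the 3 genes with an unadjusted p under 0.05, in opposite directions. CCNB2, a B-type cyclin that activates CDK1, read 25.9, 25.7 and 35.2 in Japanese Black and 10.3, 7.80 and 9.26 in Holstein. Every Japanese Black animal was above every Holstein animal, the nearest values being 25.7 and 10.3. The log2 difference was 0.83 (SE 0.15, unadjusted p 0.000402, adjusted p 0.148 in limma). These signals are dim, so the difference depends on the offset and became 0.34 when 64 was added and 1.56 when 1 was added. CCNB2 lay just above the line through its Japanese Black values, so it could be tested only because it was high there. It fell below the line, and was not tested, when any 1 of the Japanese Black animals was left out.

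CCNB1, the other B-type cyclin, lay below the line but had the same direction, with 5.33, 14.5 and 4.19 in Japanese Black and 1.42, 2.26 and 2.07 in Holstein. Japanese Black 2 stood highest, and the nearest values of the breeds were 4.19 and 2.26. With no filter on dim probe sets its difference of 0.40 (SE 0.19) had an adjusted p of 0.478 in limma. CCNA2, the cyclin of S phase and early mitosis, was listed at 0 in Japanese Black 1 and 2 and Holstein 3 and read at most 9.44 in the others.

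CDK1, the kinase that B-type cyclins activate, read 22.1, 17.1 and 12.6 in Japanese Black and 35.8, 24.4 and 30.9 in Holstein. All Japanese Black values were below all Holstein values, again at dim signals. The log2 difference was -0.48 (SE 0.17, unadjusted p 0.0217, adjusted p 0.349 in limma). Raising the offset to 64 gave -0.22, and lowering it to 1 gave -0.80. The unadjusted p was above 0.05 without Japanese Black 2 (0.0516), Japanese Black 3 (0.0695) or Holstein 1 (0.0766). The differences of the kinase and of the 2 B-type cyclins that activate it had opposite signs, all at dim signals. CCNB2 was tested only through its high Japanese Black values and CCNB1 lay below the line, so no conclusion is drawn from this contrast.

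Of the genes of chromosome structure, SMC4, a core subunit of the condensin complex that compacts chromosomes, read 33.8, 54.3 and 35.2 in Japanese Black and 32.7, 60.4 and 7.75 in Holstein. Holstein 3 was far below the other 5 animals. The log2 difference was 0.34 (SE 0.37) and became -0.11 without Holstein 3. Its 2 other probe sets were below the line, with differences of 0.33 and -0.07. CENPA, the histone variant of centromeres, differed by 0.03 (SE 0.20) at signals of 13.6 to 31.4.

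Spindle kinases and the checkpoint had 3 genes higher and 4 lower in Japanese Black. PLK1, polo-like kinase, which acts from mitotic entry to cytokinesis, read 123, 104 and 106 in Japanese Black and 134, 136 and 147 in Holstein. The breeds were separate but close, with a log2 difference of -0.29 (SE 0.16, adjusted p 0.461 in limma). AURKB, the kinase of the chromosomal passenger complex, read 144, 147 and 86.1 in Japanese Black and 147, 161 and 136 in Holstein. Japanese Black 3 was alone at the low end, and the difference was -0.24 (SE 0.21). AURKA, the kinase of spindle poles, read 79.8, 148 and 41.2 in Japanese Black and 87.4, 77.0 and 91.7 in Holstein. Japanese Black 2 was the highest and Japanese Black 3 the lowest of all animals, while the Holstein animals lay close together. Its difference of -0.07 (SE 0.33) turned to 0.31 without Japanese Black 3.

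BIRC5, survivin, a partner of AURKB in the passenger complex, differed by 0.17 (SE 0.16), with signals of 18.4 to 28.1. MAD2L1, a checkpoint protein that restrains the anaphase-promoting complex, was high in Japanese Black 3 (71.3) and Holstein 1 (66.5) and ranged from 29.1 to 37.0 elsewhere, with a difference of 0.05 (SE 0.29). BUB1 and BUB1B, further checkpoint proteins, lay below the line, at signals of 3.98 to 10.02 and 5.91 to 16.1.

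The genes of mitotic exit were all 3 lower in Japanese Black. ESPL1 encodes separase, the protease that cuts cohesin between sister chromatids. At its brighter probe set it read 55.0, 59.3 and 48.4 in Japanese Black and 119, 156 and 201 in Holstein. The lowest Holstein animal was at 119 and the highest Japanese Black animal at 59.3. The log2 difference was -1.29 (SE 0.20, 95% interval -1.75 to -0.83), a 2.44-fold difference on the log2(signal + 16) scale, with an adjusted p of 0.115 in limma. It lay between -1.46 and -1.12 when single animals were left out, with adjusted p from 0.122 to 0.346. The other probe set, also above the line, read 21.4 to 25.6 in Japanese Black and 22.2 to 25.5 in Holstein, a difference of -0.01. The 2 probe sets of separase therefore gave different results, and the difference over their mean was -0.65 (adjusted p 0.232 in limma). Which of them follows the separase transcript was not tested.

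UBE2C, the ubiquitin-conjugating enzyme of the anaphase-promoting complex, read 35.9, 37.7 and 41.9 in Japanese Black and 55.0, 45.6 and 57.7 in Holstein. The breeds were separate by a gap from 41.9 to 45.6, and the difference was -0.33 (SE 0.15, adjusted p 0.412 in limma). CDC20, the activator of the same complex, lay below the line, with a difference of -0.21 and with Japanese Black 2 at 18.1, above all Holstein animals.

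**Figure D3:**
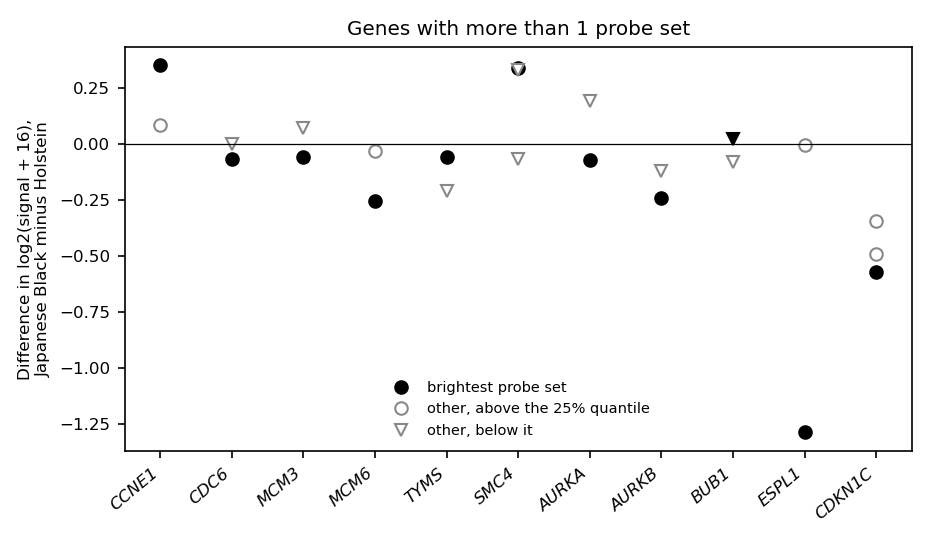
Difference in log2(signal + 16), Japanese Black minus Holstein, at every probe set of the 11 genes with more than 1; filled symbols are the brightest probe set and open symbols the others, with triangles for those below the 25% quantile. The 2 probe sets of ESPL1 are 1.28 apart, and the 3 of CDKN1C lie together.

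Across the 11 genes with more than 1 probe set there were 13 further probe sets, 8 with the same sign as the brightest and 5 with the opposite sign. All 5 of the latter were below the 25% quantile. Only ESPL1 had probe sets more than 0.5 apart on the log2 scale.

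The brakes of the cycle showed the widest spread between animals. Of 4 annotated genes 3 had a range over 1 on the log2 scale, and 9 of the 31 tested genes did, or 29.0%, beside 18.9% of the 8050 genes above the line. The 9 include CCNB2, which was tested only through its high Japanese Black values. They also include ESPL1, and in both genes the range spans a gap between the breeds. The share is therefore not read as spread within a breed. CDKN1A encodes p21, an inhibitor of cyclin-dependent kinases that is induced by p53, by glucocorticoids and during muscle differentiation. It read 971, 3280 and 1178 in Japanese Black and 638, 2412 and 1134 in Holstein. Japanese Black 2 and Holstein 2 each stood far above both other animals of their breed, and the remaining 4 lay between 638 and 1178. With 1 high animal in each breed the difference was 0.36 (SE 0.53, 95% interval -0.84 to 1.57, adjusted p 0.785 in limma). It turned to -0.17 without Japanese Black 2 and to -0.09 without Holstein 1, and was 0.86 without Holstein 2.

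CDKN1C, p57, a related inhibitor linked to growth restraint and to differentiation of myoblasts, read 772, 428 and 948 in Japanese Black and 1174, 806 and 1116 in Holstein. The lowest animal of each breed was the one in which CDKN1A was highest. Its 3 probe sets all were lower in Japanese Black, with differences of -0.57 (SE 0.28, adjusted p 0.435 in limma), -0.49 and -0.34. The probe set at -0.49 is dimmer and not in the counts by gene. Its unadjusted p was 0.0461 in limma, its adjusted p 0.392, and the breeds overlapped there. CDKN2C, p18, an inhibitor of CDK4 and CDK6, read 308, 171 and 361 in Japanese Black and 224, 253 and 185 in Holstein, with Japanese Black 2 the lowest and a difference of 0.27 (SE 0.27). RB1, the retinoblastoma protein itself, read 286 to 350 in Japanese Black and 296, 302 and 191 in Holstein. Only Holstein 3 was apart, and the difference was 0.32 (SE 0.21).

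Genes chosen after their values were seen are set beside CDKN1A here, as a description with no test. BTG1, an antiproliferative gene, was also highest in Japanese Black 2 (6640) and Holstein 2 (5616) and lay between 2235 and 4002 in the other 4. GADD45A, a growth arrest gene, was highest in the same animals, at 1438 and 1451, but Japanese Black 1 followed closely at 1256. The myogenic factors MYOG and MYOD1, made by satellite cells and young fibres, were lowest there: MYOG read 58.3 and 75.3 in these animals and 89.3 to 181 in the others. MYOD1 read 10.4 and 6.13 against 26.9 to 59.1. CHRNA1 of the satellite cell list was also lowest in these animals, at 402 and 363 against 482 to 728. MYF5 was lowest of its breed in both, at 16.5 and 23.5, though Japanese Black 1 (17.4) lay below Holstein 2. Other genes of that list shared the order in part or not at all. VCAM1 was lowest of all in Japanese Black 2 (34.4) but highest of the Holstein animals in Holstein 2 (87.8). MYMK was highest of the Japanese Black animals in Japanese Black 2 (17.7), and MET was lowest in Japanese Black 3 (36.4). Over the 9 annotated satellite cell and myoblast genes the mean deviation on the log2 scale was -0.37 in Japanese Black 2 and -0.20 in Holstein 2, and 0.02 to 0.29 in the other 4. Whether the share of such cells has a part in the values of CDKN1A and CDKN1C was not tested.

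**Figure D4:**
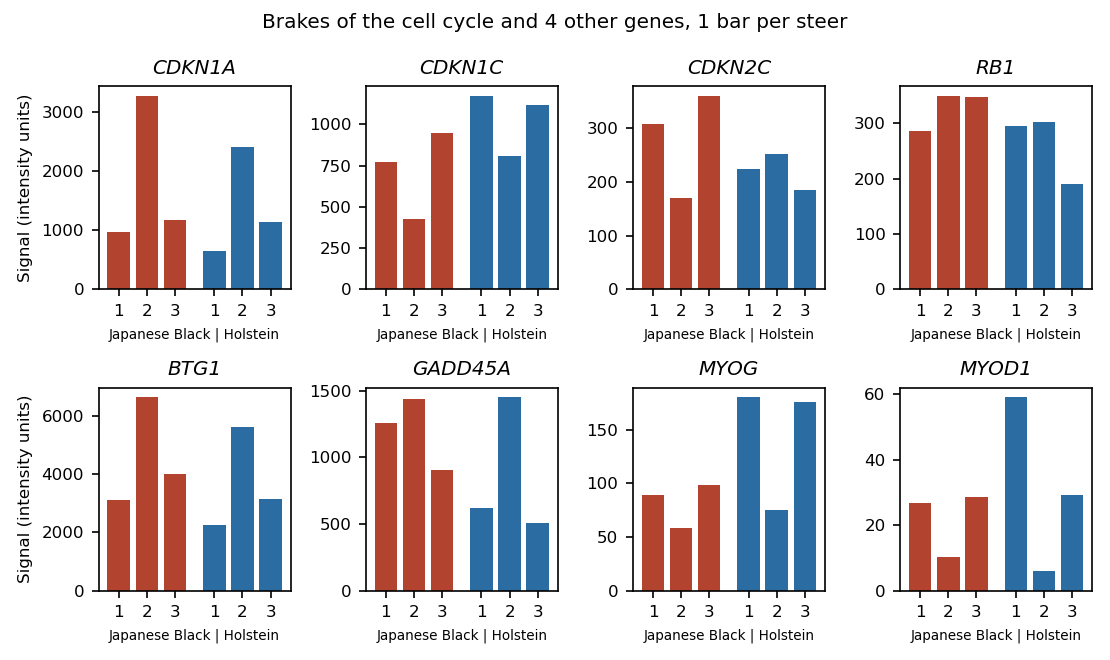
Signal in intensity units, 1 bar per steer, red for Japanese Black and blue for Holstein, for the 4 annotated brakes and for BTG1, GADD45A, MYOG and MYOD1. In CDKN1A and BTG1 the second animal of each breed is the highest, and in CDKN1C, MYOG and MYOD1 it is the lowest of its breed.

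Other genes of the cycle, in 5 lists that hold none of the 38, gave 0 genes past an adjusted p of 0.05. They were read at the brightest probe set alone. Among those named below, HMMR had 5 probe sets, NCAPH and RBL2 had 3 each, and TPX2, DUT, ORC2 and RPA2 had 2 each. Their further probe sets were not compared. At an unadjusted p under 0.05 there were 9 of 81 tested genes, or 11.1% beside 12.6% of all probe sets. Of these, 6 were higher in Japanese Black, or 7.41% beside 7.31%, and 3 lower, or 3.70% beside 5.28%. Both shares are near or below those of all probe sets. Read at 1 probe set per gene, 470 of the 8050 genes above the line were higher at that p and 436 lower. The share of higher genes in the 5 lists is above that of all genes, and no test of it was made. The list of E2F, retinoblastoma and related repressor genes had 9 of 12 genes higher, where 48.6% of all genes were, with a median difference of 0.08 and no test of the list. Of its 10 tested genes 3 were higher at an unadjusted p under 0.05, beside the 7.31% of all probe sets: TFDP1 and TFDP2, the dimer partners of E2F factors, and RBL2, a relative of RB1 kept in resting cells. TFDP1 read 258, 285 and 298 in Japanese Black and 219, 186 and 166 in Holstein, a difference of 0.53 (SE 0.17, adjusted p 0.325 in limma). TFDP2 differed by 0.69 (SE 0.19, adjusted p 0.310) and RBL2 by 0.38 (SE 0.17, adjusted p 0.392), and the breeds did not overlap for any of these 3. E2F6, a repressor of the family, differed by 0.43 without overlap, at an unadjusted p of 0.0568. That made 4 of the 10 tested genes of the list without overlap and higher, beside 11% of all probe sets. The first 3 were named by their p, so their lack of overlap is not separate support. E2F1 itself lay below the line, at signals of 0.02 to 9.68.

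The anaphase-promoting complex, cohesin and condensin list had 11 of 19 genes higher, a median of 0.03, and 4 of 17 tested genes with an unadjusted p under 0.05, beside 12.6% of all probe sets and with no test of the list. CDC26 (0.69, SE 0.18) and ANAPC4 (0.37, SE 0.16), both subunits of the anaphase-promoting complex, were higher. The condensin subunits NCAPH (-0.67, SE 0.24) and NCAPH2 (-0.47, SE 0.16) were lower, and adjusted p for these 4 lay between 0.300 and 0.389 in limma. Other replication genes had 16 of 30 higher and a median of 0.06. DUT, which removes dUTP, was lower (-0.35, SE 0.13), while ORC2 (0.48), RPA3 (0.26) and RPA2 (0.26) were higher at an unadjusted p above 0.05. Other mitosis genes had 14 of 27 higher and a median of 0.00. TPX2, an activator of AURKA on the spindle, had a difference of 0.82 (SE 0.31, adjusted p 0.362 in limma), with overlapping breeds at 212 ± 93.7 against 105 ± 5.83 (SD, n = 3 each). CENPT, KIF4A and HMMR followed at -0.35, -0.43 and 0.32. Other brakes and checkpoint genes had 3 of 12 higher and a median of -0.08, with MDM2 (0.45), GADD45A (0.60), GADD45B (-0.47) and CDC25C (-0.20) first by p.

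Dividing cells in muscle are mainly found outside the fibres, so markers of the other cell types were read in the same animals. The mean deviation of 19 leukocyte markers on the log2 scale was -0.13, -0.02 and 0.11 in Japanese Black and -0.19, -0.02 and 0.25 in Holstein, with 12 genes lower in Japanese Black. For 11 endothelial markers it was -0.07, -0.42 and 0.05 against 0.21, -0.01 and 0.23, with 10 genes lower. Their summed signal was 2792 to 4078 in Japanese Black and 3864 to 4837 in Holstein. The 9 fibroblast and progenitor markers had deviations of -0.22, -0.48 and 0.33 against 0.28, -0.02 and 0.11, with 7 genes lower. In these 3 lists, and in the satellite cell list, the mean deviations of the breeds overlapped. Single genes did not always overlap. Every Japanese Black value was lower for 2 of 11 tested endothelial genes, beside 8.84% of all probe sets. Every Japanese Black value was higher for 1 of 17 tested leukocyte genes and 1 of 9 fibroblast and progenitor genes, beside 11%. The satellite cell list had 0 such genes, and no list was tested. For 6 adipocyte markers the deviations were -0.63, -0.41 and 1.34 against 0.30, 0.97 and -1.57, the widest of the 9 marker lists. The 7 smooth muscle and pericyte markers ran from -0.56 to 0.75, and the 3 Schwann cell and nerve markers from -0.15 to 0.27.

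The erythroid markers were the only list of the 9 whose deviations did not overlap between the breeds. They were -0.22, -0.12 and 0.02 in Japanese Black and 0.13, 0.08 and 0.11 in Holstein, with 6 of 7 genes lower. Over the 5 of these genes above the line the breeds almost met, at 0.036 in Japanese Black 3 and 0.038 in Holstein 2. The summed signal of the list, which comes mostly from GYPC, was 3711 to 4942 against 3355 to 4078. It overlapped and was highest in Japanese Black 3 and Japanese Black 1. SLC4A1, the anion exchanger of red cells, was listed at 0 in Japanese Black 1 and 2, and no other marker was listed at 0 in any animal. The part of these cells in the differences of ESPL1, CCNB2 and CDK1 between the breeds was not tested.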

How the data were processed

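Total RNA was labelled as biotinylated cRNA and hybridised to 1 Affymetrix array per steer, per the labels' protocols. The deposited values are 1 linear intensity per probe set; the submitters' processing notes name GCOS 1.1.1 and Affymetrix Expression Console 1.1. How probes were summarised, and to what target arrays were scaled, is not given in the sources used here. No further scaling was applied. The 112 control probe sets were left out, 16 was added before log2, and the dimmest 25% by mean were left out, leaving 18012 of 24016. Differences between breeds were tested in R 4.3.3 with limma 3.58.1 (lmFit, eBayes with an intensity trend, two-sided, Benjamini-Hochberg over all probe sets tested), unpaired, since no label names the pairs of the paired t-test in the series design. P-values set the breed difference against the spread between animals within a breed, which limma moderates with that of all probe sets tested. The small number of animals limits the precision. Gene names came from the platform annotation (13292 probe sets with 1 symbol, 86 with several, 10638 with none); 13263 matched RefSeq of ARS-UCD2.0 by gene identifier, which changed 0 symbols. The table names no genome build, so no coordinates are given, and no sequences were used here.

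Every annotated gene of the set was named. Values per animal were given for genes with an unadjusted p under 0.05 or no overlap, the brightest per role and the 4 with the widest range, and, chosen after their values were seen, for further genes where single animals stood apart. Up to 4 genes per other list were named by p. The genes of the set and all lists were chosen with earlier results of these data known. On simulated data for this comparison of 18012 probe sets, 3 runs with 200 changed each, the limma step recovered 48.0% of changes of 1 and 90.3% of changes of 2 on the log2 scale, with 22 false among 437 calls. Alternatives were offsets of 1 and 64, other filters, quantile normalization, median centring, no intensity trend, array weights, a plain t-test, pair blocks, the mean over a gene's probe sets and leaving out each animal. Figures were drawn with matplotlib 3.10.9.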

Additional observations from a re-analysis of the deposited data

How the results depend on the processing

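Under all 22 alternatives 0 genes of the set passed an adjusted p of 0.05. The number with an unadjusted p under 0.05, 3 as reported (1 higher, 2 lower in Japanese Black), was 1 with the dimmer 50% left out, which left CCNB2 and CDK1 untested, 5 after quantile normalization (1 higher, 4 lower), 8 with array weights (3 higher, 5 lower), 5 with the plain t-test and 2 to 5 when single animals were left out, with 5 without Holstein 2. No label pairs the animals; with a replicate block under each of the 6 possible matchings it was 3 to 5, with 5 under 1 of them. The median difference kept its sign throughout, from -0.10 to -0.02. Signs turned only for PCNA (-0.063 after quantile normalization, -0.072 to 0.11 without single animals), SMC4 (-0.11 to 0.73), AURKA (-0.45 to 0.31) and CDKN1A (-0.17 to 0.86) among the 13 genes followed; the cause was not tested. Signals near the offset, as for the cyclins and CDK1, limit what the size of a difference can show.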
